A study of Homo sapiens with 2 samples.

Results

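Heat shock proteins and their J-domain partners were examined in MDA-MB-231 cells, an established human triple-negative breast cancer line, by stranded mRNA sequencing. The genes were taken by symbol: the HSP70 family (HSPA), the small heat shock proteins (HSPB), HSP90AA1, HSP90AB1, HSP90B1, the numbered DNAJA, DNAJB and DNAJC genes, and HSPD1, HSPE1, HSPH1, HSF1, HSF2, BAG3, CHORDC1, STIP1 and AHSA1. This gave 73 genes of the 29452 rows of the table, all of them listed as protein-coding in GENCODE. One library came from cells with a short hairpin RNA against CDK14, a cyclin-dependent kinase (CDK14-sh), and the other from cells with a scramble control hairpin. Both hairpins were in the same line and each group held 1 library, so there is no replicate check, no test and no p-value, and every difference compares these libraries. The labels give neither the hairpin's sequence nor whether the cells were clones.

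Chaperones hold unfolded proteins and let them refold. HSP70 proteins bind exposed stretches of a client in a cycle driven by ATP, J-domain proteins deliver clients and start the ATP step, and nucleotide exchange factors reset it. HSP90 acts later, on kinases and receptors, with co-chaperones that pass clients on from HSP70 or set its ATPase. The cytosol, the endoplasmic reticulum (ER) and the mitochondria each have their own set. HSF1 is the transcription factor that raises the cytosolic set after heat or other protein damage, and cancer cells are known for high levels of many of these proteins.

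Depth was 15478156 gene-assigned reads in the CDK14-sh library and 17217564 in that of the scramble control. Levels are in RPKM, the reads of a gene scaled to its exon length and to the reads of its library. A range in parentheses after a fold is the 95% Clopper-Pearson interval from the reads behind both levels and covers counting error alone. CDK14 itself stood at 0.548 RPKM in CDK14-sh and 2.48 RPKM in the scramble control, or 22.1% of the control (16.4% to 29.4%). The MDA-MB-231 markers VIM, CD44, EGFR and AXL were all present, with a summed level of 375 RPKM in CDK14-sh and 475 RPKM in the control. VIM made most of that gap, at 146 RPKM in CDK14-sh and 249 RPKM in the control, while CD44 was 1.16-fold higher and AXL and EGFR were 1.06-fold and 1.16-fold lower. Of 4 luminal markers, ESR1, PGR and FOXA1 had at most 9 reads in either library, and GATA3 stood at 2.56 RPKM in CDK14-sh and 2.4996 RPKM in the control. Markers of other cell types were low: the summed level of 5 fibroblast genes was 2.03 RPKM in CDK14-sh and 1.78 RPKM in the control, with DCN and LUM at 0 in both. COL1A1 made most of that sum, at 1.99 RPKM in CDK14-sh and 1.65 RPKM in the control. The summed level of 4 endothelial genes was 1.65 RPKM in CDK14-sh and 1.86 RPKM in the control, with VWF at 0 in both. KDR made most of it, at 1.42 RPKM in CDK14-sh and 1.42 RPKM in the control. Of 4 leukocyte genes 2 had a row, CD14 with 22 reads and PTPRC with 3 reads in each library. The part of these cells in the results was not tested.

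Promoter sequence is shown first, as matches to a fixed form of the element HSF1 binds and to the element of the ER stress response. A member without an exact match may still hold a shorter or looser form. Promoter windows of 250 bases before to 50 bases after each start, from RefSeq on GRCh38.p14, were at hand for 66 of the 73 genes. Both strands were searched for the heat shock element in its form of 3 alternating units, GAANNTTCNNGAA read on either strand. This form contains the shorter one of 2 units. The 3-unit form was found in 8 of the 66 members and in 0.490% of all 35116 windows in the table. The 2-unit form, in either order of the units (GAANNTTC or TTCNNGAA), was found in 23 of the 66 members and in 13.5% of windows. HSPA1A, HSPA1B, DNAJB1 and HSPB1 matched the 2-unit form but not the 3-unit form. Capitals in the lines below mark the matched bases of the 3-unit form in 5 of the abundant or most changed members, each with 20 bases on either side where the window allows, 5′ to 3′ along the gene's strand.
HSP90AB1, chr6:44247811-44247863, plus strand: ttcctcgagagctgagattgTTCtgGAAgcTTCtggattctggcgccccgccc
HSP90AA1, chr14:102087100-102087152, minus strand: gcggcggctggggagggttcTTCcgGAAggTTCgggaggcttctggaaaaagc
HSPA8, chr11:123062159-123062211, minus strand: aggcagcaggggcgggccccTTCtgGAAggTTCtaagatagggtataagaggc
HSPD1, chr2:197500048-197500090, minus strand: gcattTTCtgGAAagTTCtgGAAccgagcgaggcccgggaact
CHORDC1, chr11:90223067-90223129, minus strand: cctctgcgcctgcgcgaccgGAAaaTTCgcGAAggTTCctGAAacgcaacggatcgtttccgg

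CHORDC1 held 3 overlapping matches within that stretch and HSPD1 held 2. The windows of HSP90AB1 and HSPA8 each held 2 matches at separate places, of which 1 is shown. The other members with a 3-unit match were DNAJA1, DNAJB6 and HSPA6. The HSPD1 stretch also lies within the row of HSPE1, which is not counted as a carrier. The ER stress response element, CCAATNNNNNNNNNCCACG on either strand, was found in HSPA5 and HSP90B1 alone among the 66 members, and in 0.0769% of all windows. The HSP90B1 window held it on both strands, at separate places. In the next lines capitals mark its fixed bases.
HSPA5, chr9:125241371-125241429, minus strand: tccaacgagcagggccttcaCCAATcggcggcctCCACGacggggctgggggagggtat
HSP90B1, chr12:103930196-103930254, plus strand: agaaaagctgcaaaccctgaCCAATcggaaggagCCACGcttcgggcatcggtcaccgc
HSP90B1, chr12:103930301-103930359, plus strand: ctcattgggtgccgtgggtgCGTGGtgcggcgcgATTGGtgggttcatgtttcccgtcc

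The chaperone genes as a whole differed little between the libraries. Of the 73, 58 reached 1 RPKM in the higher library. They are compared by the log2 ratio of CDK14-sh over scramble with 0.1 RPKM added to each level, which makes the ratios of weakly expressed genes smaller than they are. Their median log2 ratio was -0.02, with 28 above and 30 below 0 (its sign turned with no level filter and with mitochondrial reads left out), against 0.04 over the 14878 rows of the table that passed the same filter. The share below 0 was 51.7% of members, against 45.3% of all rows and 46.0% of protein-coding rows. DNAJC30 was the 1 member at least 2-fold higher (background 3.21% of rows) and DNAJC6 the 1 member at least 2-fold lower (background 3.47%). Among the 10419 protein-coding rows that passed, 109 were at least 2-fold higher and 226 lower. In either direction this was 3.22% of protein-coding rows, against 3.45% of members. At 1.5-fold, 2 members were higher (3.45% of the 58, against 9.11% of rows and 5.73% of protein-coding rows). At the same threshold 3 were lower (5.17%, against 9.55% of rows and 7.61% of protein-coding rows). Of the members, 39 lay within 1.2-fold, or 67.2%, against 50.5% of all rows and 55.1% of protein-coding rows. Among genes at 100 RPKM or more in the higher library, 5 of 9 members (55.6%) lay within 1.2-fold, against 53.8% of all rows. Together the 73 genes took 1.77% of the CDK14-sh reads (1.77% to 1.78%) and 1.83% of the scramble reads (1.82% to 1.84%). The median member that passed the filter had 1120.5 reads in its lower library, so counting error on most ratios was small.

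**Figure D1:**
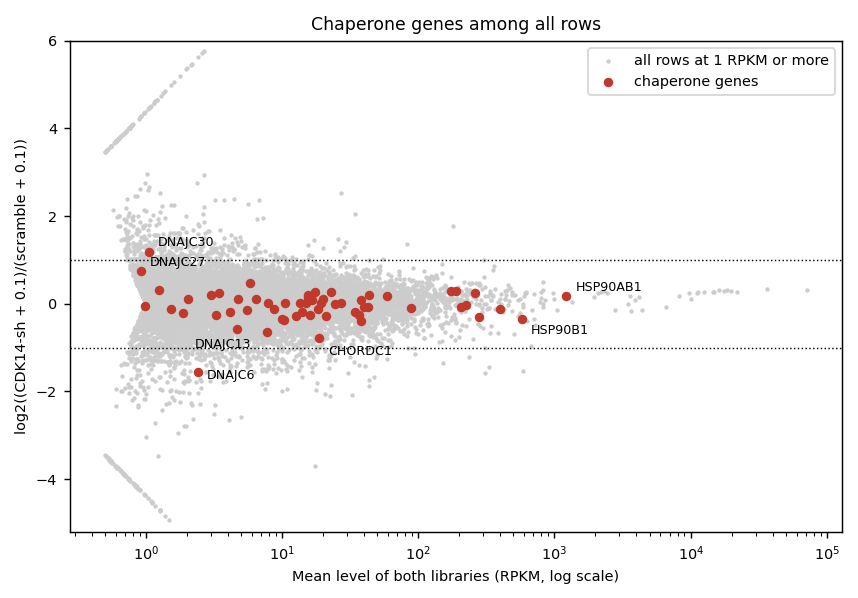
Mean level of both libraries (x axis, RPKM, log scale) against the log2 ratio with 0.1 RPKM added to each level (y axis); grey points are the 14878 rows at 1 RPKM or more in the higher library, red points the 58 chaperone genes among them, and dotted lines mark 2-fold. Among the chaperone genes only DNAJC30 lies above the upper line and only DNAJC6 below the lower line.

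The HSP90 genes were the most abundant members and did not move together. HSP90AB1, the constitutive cytosolic HSP90, stood at 1294 RPKM in CDK14-sh and 1152 RPKM in the control, which was 1.12-fold higher (1.11 to 1.14). It ranked 1 by RPKM in both libraries among rows matched to protein-coding genes, mitochondrially encoded genes not included. HSP90AA1, the inducible cytosolic form, stood at 381 RPKM in CDK14-sh and 416 RPKM in the control, 1.09-fold lower (1.08 to 1.11). HSP90B1, the ER paralogue GRP94, stood at 506 RPKM in CDK14-sh and 649 RPKM in the control, 1.28-fold lower (1.26 to 1.30). Scaling to TPM shifts every plain ratio by -0.15 log2, nearly the size of the HSP90AB1 difference (0.17). Among the 3 genes HSP90B1 alone lay beyond 1.2-fold.

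Client delivery to HSP90 runs through co-chaperones, and CHORDC1 was the one that stood out. CHORDC1, which binds HSP90 and is also known as morgana, lies on chromosome 11 from 90201160 to 90223364 on the minus strand (GRCh38). It stood at 13.7 RPKM in CDK14-sh and 23.9 RPKM in the control, from 2265 reads in CDK14-sh and 4378 in scramble, 1.74-fold lower (1.65 to 1.83). STIP1, the adaptor that joins HSP70 to HSP90, stood at 38.9 RPKM in CDK14-sh and 40.7 RPKM in the control. AHSA1, which stimulates the HSP90 ATPase, stood at 47.0 RPKM in CDK14-sh and 40.7 RPKM in the control, 1.16-fold higher (1.09 to 1.23). BAG3, a nucleotide exchange factor that links HSP70 to autophagy, stood at 19.1 RPKM in CDK14-sh and 23.2 RPKM in the control, 1.21-fold lower (1.11 to 1.33). The CHORDC1 difference is the only one of these 4 past 1.5-fold.

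Genes of the HSP70 and HSP110 family were mostly lower, by small amounts. Of 15 genes, 11 passed the filter, 8 of them below 0, with a median log2 ratio of -0.09. The median stayed below 0 in every alternative setting listed in the closing section where it was computed, from -0.24 to -0.05. HSPA8, the constitutive cytosolic HSP70, stood at 222 RPKM in CDK14-sh and 225 RPKM in the control from 16643 reads in CDK14-sh and 18794 in scramble, with a ratio within 1.04-fold by its counting interval. HSPA4, an HSP110-type exchange factor, stood at 86.1 RPKM in CDK14-sh and 91.7 RPKM in the control. Its relatives differed more. HSPH1 (HSP110) stood at 32.9 RPKM in CDK14-sh and 43.2 RPKM in the control, 1.31-fold lower (1.26 to 1.36). HSPA4L stood at 3.72 RPKM in CDK14-sh and 5.61 RPKM in the control, 1.51-fold lower (1.37 to 1.66) as a plain ratio and just inside 1.5-fold with 0.1 RPKM added.

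The stress-induced HSPA1A and HSPA1B are near-identical neighbours on chromosome 6, and the labels do not state how reads fitting both were assigned. HSPA1A stood at 14.6 RPKM in CDK14-sh and 17.4 RPKM in the control, and HSPA1B at 41.5 RPKM in CDK14-sh and 43.8 RPKM in the control. Summed, the pair counted 2178 reads in CDK14-sh against 2646 in scramble, 1.09-fold lower (1.03 to 1.16). HSPA6, the strictly heat-inducible HSP70, counted 3 reads in CDK14-sh and none in scramble, at which depth no difference can be shown. In the scramble library 3 reads of this gene would be 0.0735 RPKM. HSPA14 was higher, at 24.8 RPKM in CDK14-sh and 20.6 RPKM in the control (1.203-fold, 1.12 to 1.29). Its J-domain partner on the ribosome, DNAJC2, stood at 16.6 RPKM in CDK14-sh and 14.6 RPKM in the control (1.14-fold higher, 1.06 to 1.22).

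**Figure D2:**
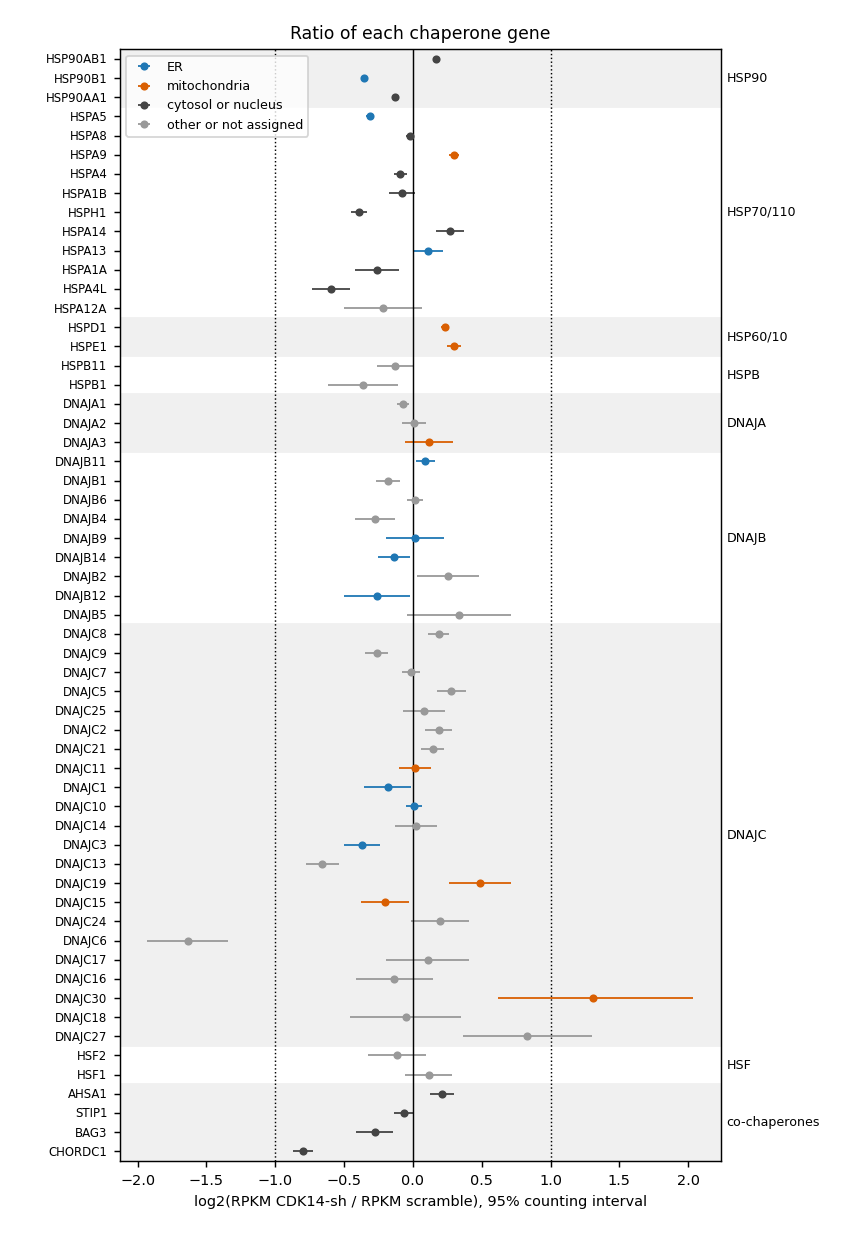
Log2 ratio of plain RPKM, CDK14-sh over scramble (x axis), for the 58 chaperone genes that passed the filter, grouped by family and ordered by level within it; bars are 95% counting intervals, colours give the compartment and dotted lines mark 2-fold. Mitochondrial genes (orange) lie right of 0 in 7 of 8 cases, with the bars of DNAJA3 and DNAJC11 reaching across 0. Of the 10 ER genes (blue), 6 lie left of 0, HSP90B1, HSPA5 and DNAJC3 among them, and 4 lie right of it.

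Mitochondrial members lay together on the higher side. This grouping by compartment was made after the values were seen, from textbook knowledge of each protein, so it is a description. HSPD1, the mitochondrial chaperonin HSP60, stood at 281 RPKM in CDK14-sh and 239 RPKM in the control, 1.18-fold higher (1.15 to 1.202). HSPE1, its lid HSP10, stood at 208 RPKM in CDK14-sh and 169 RPKM in the control, 1.23-fold higher (1.19 to 1.28). HSPA9, the mitochondrial HSP70 mortalin, stood at 192 RPKM in CDK14-sh and 156 RPKM in the control, 1.23-fold higher (1.2005 to 1.26). The HSPD1 and HSPE1 genes lie head to head on chromosome 2, from 197486581 to 197516737 (minus) and from 197499994 to 197503457 (plus). Their rows share 281 bases, and the HSPE1-MOB4 row, which shares 192 bases with HSPE1, held 6540 reads in CDK14-sh against 5992 in scramble. Reads in shared bases cannot be assigned to 1 gene alone.

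Mitochondrial J-domain proteins were less uniform. DNAJC19, a subunit of the inner membrane import motor, stood at 6.74 RPKM in CDK14-sh and 4.81 RPKM in the control, 1.40-fold higher (1.1996 to 1.64). DNAJC15, a relative of it in the same membrane, stood at 3.84 RPKM in CDK14-sh and 4.41 RPKM in the control, 1.15-fold lower (1.02 to 1.30). DNAJA3 (TID1) stood at 4.92 RPKM in CDK14-sh and 4.53 RPKM in the control, and DNAJC11, of the cristae-organising complex, at 15.0 RPKM in CDK14-sh and 14.8 RPKM in the control. The intervals of DNAJA3 (0.96 to 1.23) and DNAJC11 (0.93 to 1.10) held even levels. The median over the 8 mitochondrial members that passed the filter was 0.27, with 7 above 0. With TPM 5 of the 8 were above 0. The median lay from 0.11 (TPM) to 0.31 (mitochondrial reads left out of the totals) in the alternative settings, and at 0.12 over the 3 that overlap no other row. Their summed level was 713 RPKM in CDK14-sh and 593 RPKM in the control.

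ER members lay on the other side in their most abundant genes. HSPA5 (BiP), the ER HSP70, stood at 251 RPKM in CDK14-sh and 311 RPKM in the control, 1.24-fold lower (1.21 to 1.27). This is close in size to its partner HSP90B1, and the ratio of HSP90B1 to HSPA5 was 2.02 in CDK14-sh and 2.09 in the control. DNAJC3, an ER J-domain protein also known as P58IPK, stood at 9.02 RPKM in CDK14-sh and 11.7 RPKM in the control, 1.29-fold lower (1.18 to 1.42). DNAJB11 (ERdj3) stood at 39.4 RPKM in CDK14-sh and 37.0 RPKM in the control, DNAJB9 (ERdj4) at 7.90 RPKM in CDK14-sh and 7.82 RPKM in the control, and DNAJC10 (ERdj5) at 13.6 RPKM in CDK14-sh and 13.5 RPKM in the control. Those 3 stayed within 1.1-fold. HSPA13, an HSP70-like protein of the ER, stood at 20.6 RPKM in CDK14-sh and 19.1 RPKM in the control. Among the genes assigned to the ER, the membrane-bound DNAJC1, DNAJB14 and DNAJB12 were on the lower side. DNAJC1 stood at 13.05 RPKM in CDK14-sh and 14.8 RPKM in the control, DNAJB14 at 5.24 RPKM in CDK14-sh and 5.76 RPKM in the control, and DNAJB12 at 2.96 RPKM in CDK14-sh and 3.55 RPKM in the control. DNAJC14 and DNAJC25, which were not assigned to the ER, lay slightly above 0 (0.02 and 0.08) with intervals that held even levels. In TPM all 10 ER members were below 0, on a scale where the median over all rows was -0.11. Over the 10 ER members the median was -0.16, with 6 below 0, and it lay from -0.31 to -0.12 in the alternative settings. The summed level of these genes was 869 RPKM in CDK14-sh and 1073 RPKM in the control.

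Values that moved beside these groups are given here. Mitochondrially encoded transcripts took 17.1% of the CDK14-sh reads and 14.5% of the scramble reads. Row length also went with the ratio: of 4 length classes of protein-coding rows, the shortest had a median log2 ratio of 0.13 and the longest -0.05. The median row length was 4498 bases for mitochondrial members and 5139.5 bases for ER members, and protein-coding rows of 3254 to 5039 bases, the class of the first, had a median log2 ratio of 0.05, and those of 5040 to 7397 bases, the class of the second, one of 0.01. The part of either in the differences between compartments was not tested. With no replicates, spread between cultures cannot be told apart from the knockdown.

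The remaining large ratios were in the DNAJC family, whose members share the J domain and little else. It is also the largest family here, with 22 genes that passed the filter. Of these, 18.2% were past 1.5-fold in either direction, against 18.7% of all rows and 13.3% of protein-coding rows. DNAJC6 (auxilin), which recruits HSPA8 to strip clathrin from vesicles, lies on the plus strand of chromosome 1, from 65248219 to 65415869. It stood at 1.18 RPKM in CDK14-sh and 3.66 RPKM in the control, from 127 reads in CDK14-sh and 438 in scramble, 3.10-fold lower (2.54 to 3.81). DNAJC13 (RME-8), an endosomal J-domain protein on chromosome 3 from 132417526 to 132539032, stood at 6.01 RPKM in CDK14-sh and 9.49 RPKM in the control, 1.58-fold lower (1.45 to 1.72). The DNAJC6 and DNAJC13 rows overlap no other row. DNAJC5, the cysteine string protein of secretory vesicles, was higher, at 19.2 RPKM in CDK14-sh and 15.8 RPKM in the control (1.21-fold, 1.13 to 1.30).

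DNAJC30, a mitochondrial protein, is a gene of 1 exon on chromosome 7 from 73680969 to 73683453. It stood at 1.51 RPKM in CDK14-sh and 0.608 RPKM in the control, from 58 reads in CDK14-sh and 26 in scramble, 2.48-fold higher (1.54 to 4.11). Its row shares 14.4% of its bases with WBSCR22 on the opposite strand, which stood at 5.81 RPKM in CDK14-sh and 4.43 RPKM in the control, so reads of those bases cannot be told apart here. DNAJC27, which joins a J domain to a Rab-like GTPase, stood at 1.17 RPKM in CDK14-sh and 0.661 RPKM in the control, from 102 reads in CDK14-sh and 64 in scramble, 1.77-fold higher (1.28 to 2.46). Both intervals are wide because few reads lie behind them, and both reach below 2-fold. Leaving out DNAJC30, no mitochondrial member lay past 1.5-fold.

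Most other J-domain genes were close to even. Of 41 DNAJA, DNAJB and DNAJC genes, 34 passed the filter, 20 above and 14 below 0, with a median of 0.02 and 25 of them within 1.2-fold. The medians of the DNAJA, DNAJB and DNAJC genes were all below 0 in TPM, as was that of all rows (-0.11). DNAJA1, the most abundant of these HSP70 partners, stood at 200.1 RPKM in CDK14-sh and 210 RPKM in the control. DNAJB1 (HSP40), a heat-inducible partner of HSP70, stood at 32.4 RPKM in CDK14-sh and 36.7 RPKM in the control, 1.13-fold lower (1.07 to 1.21), and DNAJB4 at 11.5 RPKM in CDK14-sh and 13.9 RPKM in the control. DNAJB5 stood at 1.40 RPKM in CDK14-sh and 1.11 RPKM in the control, with an interval that held even levels. DNAJA2, DNAJB6, DNAJC7 and DNAJC14 stayed within 1.02-fold, at 10.7 to 27.2 RPKM in CDK14-sh and 10.5 to 27.0 RPKM in the control. The interval of DNAJC14 was wider (0.92 to 1.13). Its row shares 58.1% of its bases with other rows, so reads of those bases cannot be told apart here. DNAJB2, a neuronal J-domain protein also found elsewhere, stood at 3.72 RPKM in CDK14-sh and 3.12 RPKM in the control, 1.19-fold higher (1.02 to 1.40), and DNAJC21, a ribosome assembly factor, at 16.3 RPKM in CDK14-sh and 14.8 RPKM in the control, 1.11-fold higher (1.04 to 1.17). For DNAJC16, DNAJC17, DNAJC18, DNAJC24 and DNAJC25, and for HSPA12A among the distant HSP70 relatives, the interval of the ratio held even levels. DNAJC8, a splicing-associated protein, stood at 63.0 RPKM in CDK14-sh and 55.4 RPKM in the control, 1.14-fold higher (1.08 to 1.1996), while DNAJC9, which binds histones H3 and H4, stood at 33.3 RPKM in CDK14-sh and 39.9 RPKM in the control, 1.198-fold lower (1.13 to 1.27).

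**Figure D3:**
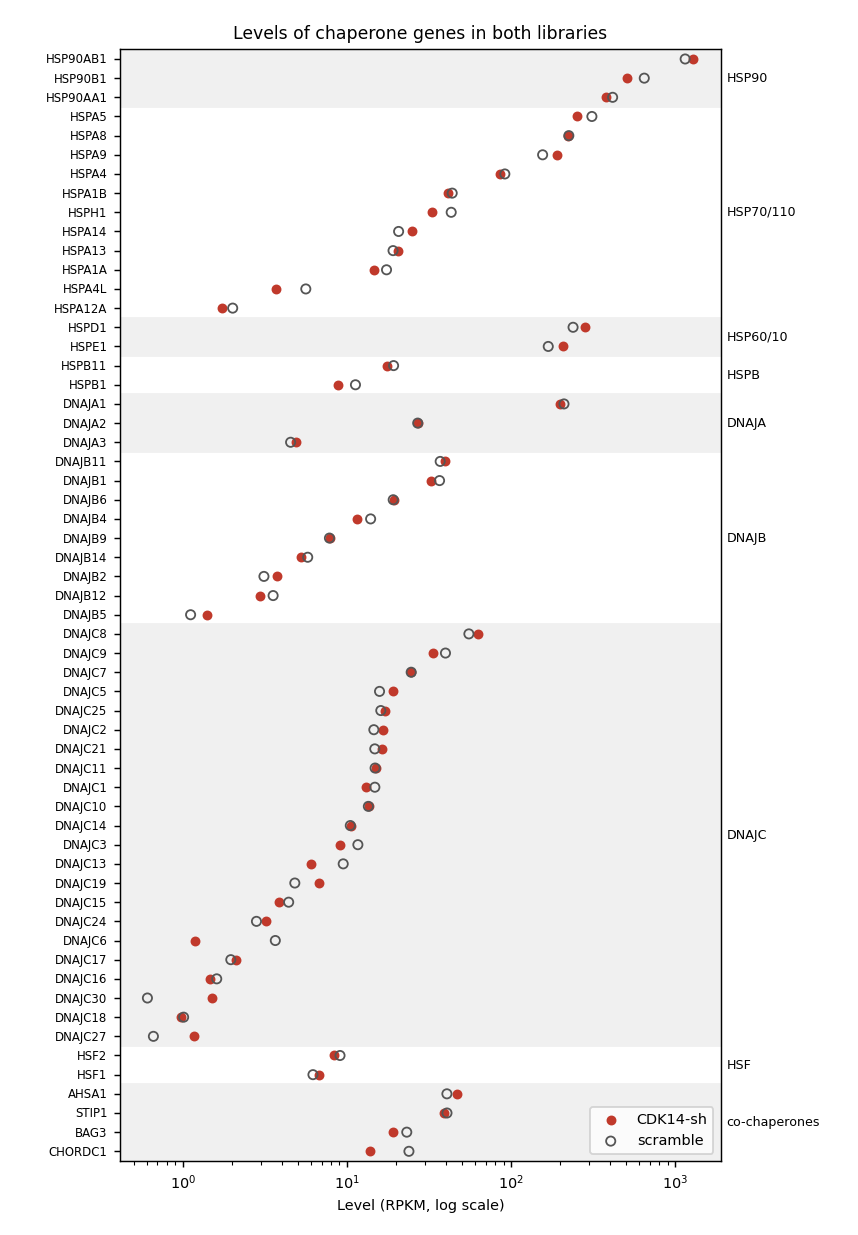
Level in RPKM (x axis, log scale) of the 58 chaperone genes that passed the filter, with CDK14-sh as filled red points and scramble as open grey circles, grouped by family. HSP90AB1 is the highest at 1294 RPKM in CDK14-sh and 1152 RPKM in scramble, and DNAJC6 shows the widest gap between the libraries.

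Small heat shock proteins hold unfolded proteins without ATP, and few were present. HSPB1 (HSP27) stood at 8.78 RPKM in CDK14-sh and 11.3 RPKM in the control, from 222 reads in CDK14-sh and 317 in scramble, 1.28-fold lower (1.08 to 1.53). HSPB11, which carries the family's name but is a part of the intraflagellar transport complex, stood at 17.6 RPKM in CDK14-sh and 19.2 RPKM in the control. HSPB6, HSPB8 and HSPB9 had at most 10 reads in either library, and HSPB7 had none. With 3 reads as the limit that a count of 0 allows, HSPB7 could have been at up to 0.0496 RPKM in CDK14-sh and 0.0446 RPKM in the control.

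Heat shock factor transcripts were nearly level. HSF1 stood at 6.72 RPKM in CDK14-sh and 6.21 RPKM in the control, with a ratio whose interval ran to 1.22-fold higher and held even levels and whose sign turned in TPM. HSF2, a related factor, stood at 8.37 RPKM in CDK14-sh and 9.07 RPKM in the control, and its interval also held even levels. Among the 7 members with a 3-unit heat shock element that passed the filter, the median log2 ratio was -0.02, against -0.03 over the matched members without one. These 7 include CHORDC1 at -0.79 and HSPD1 at 0.24. The shorter 2-unit form was in 17 members that passed, with a median of -0.13, against 0.02 over the matched members without it. Over all rows at 1 RPKM or more, 44 genes had the 3-unit element, with a median of 0.07, and 8678 had a window without it, with a median of 0.04. For the 2-unit form, the medians were 0.02 over 1208 such genes and 0.04 over 7514 with a window without it. The part of either form in these ratios was not tested. The ER stress response element was in 15 such genes, 12 of them below 0, with a median of -0.18, against 0.04 over the 8707 with a window that lacked it. Of those 8707, 3970 lay below 0. Apart from HSPA5 and HSP90B1, 10 of the 13 carriers lay below 0 with a median of -0.14. These 13 were ALG12, CALR, CANX, CRELD2, EIF2A, ERO1B, FICD, PDIA6, SERP1, SYNPO, TMEM120A, TRIM5 and XBP1. The part of this element in the ratios was not tested. A match to these letters is a description of the window and not evidence of binding.

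Other folding genes, taken from lists written down for this comparison, give the setting of these values. Prefoldin, which hands new actin and tubulin to the chaperonin, had 6 of 6 subunits above 0 with a median of 0.23, from PFDN2 at 1.38-fold higher (1.32 to 1.46) to VBP1 at 1.07-fold higher. In TPM 4 of the 6 were above 0, VBP1 not among them, and the median was 0.07. The CCT/TRiC chaperonin had 3 of 8 above and 5 below 0 with a median of -0.09, from CCT3 at 1.18-fold higher (1.13 to 1.24) to CCT2 at 1.33-fold lower (1.26 to 1.40), and its median was 0.02 over rows overlapping no other. HSP90 co-chaperones outside the members had 5 of 12 above 0 with a median of -0.04, which lay from -0.19 in TPM to 0.0042 with mitochondrial reads left out. FKBP5, an HSP90-binding immunophilin, was 1.47-fold higher (1.38 to 1.57) and CDC37, the adaptor for kinases, was 1.36-fold lower (1.31 to 1.41).

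Exchange factors and regulators of HSP70 had 6 of 11 above 0 with a median of 0.02, which was -0.13 in TPM with 3 above 0 and -0.02 after median centring. At least 1.5-fold higher was 1 of the 11 (9.09%), against 9.11% of all rows and 5.73% of protein-coding rows. GRPEL1, the exchange factor of HSPA9 in mitochondria, stood at 25.4 RPKM in CDK14-sh and 14.3 RPKM in the control, 1.78-fold higher (1.64 to 1.92). HYOU1, the exchange factor of HSPA5 in the ER, stood at 46.3 RPKM in CDK14-sh and 62.3 RPKM in the control, 1.34-fold lower (1.30 to 1.39). The list of ER and mitochondrial folding genes had 6 of 13 above 0 and a median of -0.02, which was 0.02 with mitochondrial reads left out and -0.18 in TPM. At least 1.5-fold lower was 1 of the 13 (7.69%), against 9.55% of all rows and 7.61% of protein-coding rows. CANX (calnexin), a lectin chaperone of the ER, stood at 296 RPKM in CDK14-sh and 474 RPKM in the control, 1.60-fold lower (1.58 to 1.63), and CLPP, a mitochondrial protease subunit, was 1.43-fold higher (1.28 to 1.60).

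Split by compartment after the values were seen, the 10 ER genes of these lists had 7 below 0 with a median of -0.18, and the 7 mitochondrial genes found had 6 above 0 with a median of 0.41. SDF2L1, SERPINH1 and SIL1 were the ER genes above 0, and CLPX the mitochondrial gene below it. Other genes linked to HSF1 had 5 of 11 above 0 with a median of -0.03. That median was 0.07 at 5 RPKM or more, 0.01 both with mitochondrial reads left out and over rows overlapping no other, and -0.18 in TPM. At least 1.5-fold lower was 1 of the 11 (9.09%, against 9.55% of all rows and 7.61% of protein-coding rows), and none passed 2-fold with 0.1 RPKM added. In that list HMOX1 had 18 reads in CDK14-sh against 44 in scramble (2.20-fold lower as a plain ratio, 1.24 to 4.04), and MRPL18 was 1.199-fold higher (1.08 to 1.33).

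**Figure D4:**
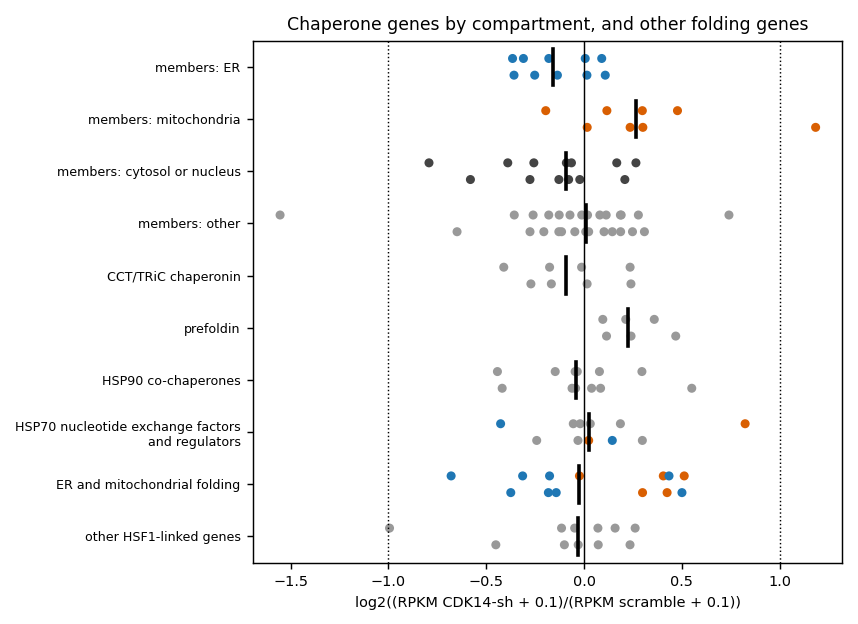
Log2 ratio with 0.1 RPKM added to each level (x axis) for chaperone genes by compartment (upper 4 lines) and for the other lists of folding genes (lower 6 lines); each point is a gene, black bars are medians, blue marks the ER and orange the mitochondria, and dotted lines mark 2-fold. Mitochondrial members have a median of 0.27 and ER members one of -0.16.

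Short words in 3' untranslated regions (UTRs) were searched because words chosen from the ratios of all genes in these libraries (GTCATGC, then TCATGCA, then ATCCATA, and TCCATAA) were more common in lower genes. Since they were picked from the same ratios, their presence is a description only. In the GENCODE 3' UTR of each gene, at least 1 word was found in 20 of the 58 members that passed the filter (34.5%) and in 25.1% of 10358 protein-coding rows. Members with a word had a median log2 ratio of -0.02 and members without one -0.02 as well. Over all protein-coding rows the medians were -0.09 with a word and 0.07 without. Members with a word had a median UTR of 3198.5 bases and members without one 934.5 bases. Over all protein-coding rows the median UTR was 2979 bases with a word and 1001 bases without. The part of UTR length in these ratios was not tested.

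Of the 3 members at least 1.5-fold lower, CHORDC1 carried a word and DNAJC6 and DNAJC13 did not. HSPA4L carried 5 matches, some of them overlapping, and both members at least 1.5-fold higher, DNAJC30 and DNAJC27, carried a word as well. Stretches of 29 bases with the word in capitals are shown for a lower and a higher gene.
CHORDC1, base 352 of its 3' UTR: ttttgtattatTCCATAAttagtaaagca
DNAJC30, base 734 of its 3' UTR: tcttgaggtctGTCATGCtttattatcca

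The 15 members under the filter add little. Of them, 12 had at most 17 reads in either library. DNAJB7, whose row shares 24.2% of its bases with XPNPEP3, counted 34 reads in CDK14-sh and 17 in scramble. DNAJC4 counted 39 reads in CDK14-sh and 38 in scramble, and DNAJC22 counted 44 in CDK14-sh and 62 in scramble. Pseudogene rows named after a member held few reads: 42 rows counted 639 reads in CDK14-sh and 721 in scramble, while the members counted 274551 in CDK14-sh and 314916 in scramble. The labels do not state how reads fitting a gene and its pseudogene copies were assigned. Of the 58 members that passed the filter, 28 had exons that overlap another row.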

How the data were processed

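The 2 libraries of MDA-MB-231 cells were made with a stranded mRNA kit, per the labels' protocols. Their RPKM values were deposited by the authors as 1 table that also holds exon positions and row lengths. Tools named in the submitters' processing notes are featureCounts and Subread 1.5.1 beside Bowtie 0.12.2; the builds named are mm8 and GRCh38, with no roles. Strand and multi-mapping settings are not given. Row ends matched GENCODE v29 (GRCh38) for 69 of 73 members. Each value multiplied by row length gave whole reads in 100% of nonzero cells, to within 0.01 read, and these are the reads behind the counting intervals; the count test needs replicates and was not run. Named members are all past 2-fold, those past 1.5-fold with at least 30 reads, the 10 most abundant, the highest and most changed of each family and those listed singly; named folding genes are the most changed of each list with at least 30 reads. Others were chosen after their values were seen. Members and lists were chosen with earlier results of these data known. The ratio and interval code was tested on simulated data. Versions were matplotlib 3.10.9, scipy 1.17.1, pandas 2.3.3, numpy 2.4.6 and Python 3.11.15.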

Additional observations from a re-analysis of the deposited data

How the results depend on the processing

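No paired analysis was possible because there was a single library of each kind, and for the same reason none could be left out. Restricting to protein-coding rows was chosen after seeing the data. There was 1 member at least 2-fold higher and 1 lower. The higher count was 0 when 1 RPKM was added to each level, at 5 RPKM or more and over rows overlapping no other, and 2 with mitochondrial reads left out; the lower count was 0 at 5 RPKM or more, and the 1.5-fold threshold gave 2 higher and 3 lower. The members' median of -0.02 became -0.16 in TPM, which shifts the whole scale. For all rows, 478 were higher and 516 lower by at least 2-fold. These became 176 higher and 259 lower when 1 RPKM was added, 2173 and 2043 without the level filter, 83 and 177 at 5 RPKM or more, 166 and 290 at 30 reads or more, 307 and 315 over rows overlapping no other, 1355 and 1421 at 1.5-fold, and 109 and 226 among protein-coding rows. TPM gave 1128 lower rows. For CDK14 the log2 ratio of -1.99 became -1.17 when 1 RPKM was added. The named genes had 388 values in the alternatives: 338 stayed within their counting interval and 50 moved. Settings that only select rows repeat a gene's main ratio, so those values could not move and are no check on it. Opposite signs occurred in 5 of the 388 values, DNAJA3, DNAJB11, HSF1 and VBP1 in TPM and HSPA8 with mitochondrial reads left out. Genes with few reads, such as DNAJC30, have wide intervals.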
